A study of Mus musculus with 6 samples.

Results

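Pf4, Itga2b, Itgb3, Vwf, F2r, Cavin2, Gp9, Gp5 and Gp1ba are 9 genes of megakaryocytes, the marrow cells that shed platelets. They were followed in granulocyte/macrophage progenitors (GMPs) on 6 Affymetrix Mouse Genome 430 2.0 arrays. Members were all probe sets that the platform annotation gives to these symbols: 12 of 45037 probe sets, for 8 of the 9 genes. Gp1ba matched no probe set of the annotation used and was not analysed here. After a filter on low values 10 of the 12 probe sets remained among 29783, and each of the 8 genes kept at least 1.

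The cells came from bone marrow of IRF4/8 DKO mice, which lack both IRF4 and IRF8, of IRF8 KO mice, and of wild type (WT) mice, all of strain BL6. IRF4 and IRF8 are related transcription factors of blood cells, and the series asks how their deficiencies act together in blood cancers. Each genotype had 2 arrays, each from 1 mouse. The IRF4/8 DKO mice were a male and a female of 16 weeks, the IRF8 KO mice a female of 12 and a male of 22 weeks, and the WT mice a male of 12 and a female of 19 weeks, as replicates 1 and 2 in that order. GMPs were sorted as negative for lineage markers, IL-7R and Sca1, positive for Kit and CD34, and high for Fc gamma receptors. The labels do not name the alleles of the deficient mice or how they were made.

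Megakaryocytes arise from progenitors that they share with red cells, and the GATA1, GATA2 and ETS family factors drive many of their genes. A maturing megakaryocyte fills alpha granules with PF4 and von Willebrand factor. It also builds the receptors by which a platelet later sticks and clumps: the GPIb-IX-V complex, which binds von Willebrand factor, and integrin alpha IIb beta 3, which binds fibrinogen. GMPs are known for giving rise to granulocytes and monocytes, not to platelets.

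Promoter sequences are shown for the 3 genes that fell in IRF4/8 DKO GMPs, for Itga2b, whose arrays also separated, and for Gp9, whose arrays did not. They are the 250 bases before the transcript start used in a RefSeq promoter table (build GRCm38.p6), which held 7 of the 9 members. The Gp9 window lies inside the span that RefSeq gives this gene, chr6:87776131-87779786, so it is not the sequence before the first base of that span. Capitals mark the motifs GATAA, a core that GATA factors bind, GGAAG, a core of ETS factors, and the composite that ETS and IRF factors bind together, GGAA followed after any 2 bases by GAAA. Both strands were searched.
Pf4, chr5:90772185-90772434, plus strand: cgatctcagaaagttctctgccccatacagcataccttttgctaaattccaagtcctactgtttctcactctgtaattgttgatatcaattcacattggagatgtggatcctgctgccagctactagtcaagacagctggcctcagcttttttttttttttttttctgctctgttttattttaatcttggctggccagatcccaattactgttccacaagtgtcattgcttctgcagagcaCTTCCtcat
Cavin2, chr1:51288876-51289125, plus strand: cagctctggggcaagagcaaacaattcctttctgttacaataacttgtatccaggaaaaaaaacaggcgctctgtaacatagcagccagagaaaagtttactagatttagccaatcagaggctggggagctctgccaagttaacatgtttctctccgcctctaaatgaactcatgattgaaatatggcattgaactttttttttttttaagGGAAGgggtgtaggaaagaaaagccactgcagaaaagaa
F2r, chr13:95618467-95618716, minus strand: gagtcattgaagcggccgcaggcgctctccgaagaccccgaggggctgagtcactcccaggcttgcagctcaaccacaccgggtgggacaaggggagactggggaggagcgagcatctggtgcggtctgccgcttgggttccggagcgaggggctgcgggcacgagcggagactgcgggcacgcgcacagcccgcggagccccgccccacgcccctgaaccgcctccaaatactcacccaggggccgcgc
Itga2b, chr11:102469884-102470133, minus strand: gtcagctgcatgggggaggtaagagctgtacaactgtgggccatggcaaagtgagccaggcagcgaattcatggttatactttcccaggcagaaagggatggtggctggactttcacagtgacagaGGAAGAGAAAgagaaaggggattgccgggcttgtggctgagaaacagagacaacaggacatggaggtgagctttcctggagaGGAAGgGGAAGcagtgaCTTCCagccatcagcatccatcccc
Gp9, chr6:87777820-87778069, plus strand: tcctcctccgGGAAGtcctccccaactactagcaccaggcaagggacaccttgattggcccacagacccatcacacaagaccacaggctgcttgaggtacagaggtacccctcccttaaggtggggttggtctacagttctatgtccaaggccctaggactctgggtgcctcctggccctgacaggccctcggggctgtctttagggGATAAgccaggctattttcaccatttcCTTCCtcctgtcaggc

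The composite stood in 1 of these 5 windows, that of Itga2b, where it begins 124 bases before the start and overlaps a GGAAG. It is found in 2.30% of 32817 promoter windows of this length. GATAA stood in the window of Gp9 and in none of the other 4, against 22.6% of all windows. GGAAG stood in all of them except that of F2r, against 64.1% of all windows. The windows of Gp5 and Gp1ba, which are not shown, each held 2 GATAA, 2 GGAAG and no composite. The F2r window is rich in G and C, at 70.8%, and the windows of Pf4 and Cavin2 are poor in them, at 41.2% and 40.4%. None of the 3 genes that fell held GATAA or the composite in its window, and a link to their fall was not tested.

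The values are intensities on a linear scale that the authors computed, and arrays have no read depth, so their number limits the precision. Fold changes and tests use log2(intensity + 10.5), with a pseudocount of 10.5 taken from the 25th percentile of the table, and limma over 29783 probe sets with Benjamini-Hochberg adjustment and a threshold of 0.05. A fold change on this scale understates the change of low genes. On each array between 1.86% and 1.98% of probe sets read exactly 1, so a value of 1 has no order among them. Whether the mice shared litters is not stated, and p-values measure the spread between these arrays. GMP genes were high on all arrays, with Mpo, the myeloperoxidase gene, between 12946 and 15417. Irf8 itself read 2611 and 4778 in IRF4/8 DKO, 3811 and 2602 in IRF8 KO, and 2588 and 3052 in WT, on its brighter probe set. Its dimmer probe set read 934 and 1900 in IRF4/8 DKO, 1333 and 1131 in IRF8 KO, and 507 and 704 in WT. The dimmer one was thus higher on every array labelled as lacking IRF8 than on either WT array. Irf4 read 66.0 and 54.6 in IRF4/8 DKO, 13.8 and 7.66 in IRF8 KO, and 32.1 and 23.4 in WT on one probe set, highest on the arrays labelled as lacking IRF4. On its other probe set it read 11.8 and 20.1 in IRF4/8 DKO, 29.7 and 14.1 in IRF8 KO, and 33.1 and 16.8 in WT. Neither gene was thus lower throughout on the arrays labelled as lacking it. Whether these probes fall inside a deleted stretch is unknown, so the genotypes are those of the labels, unchecked by these values, and all directions rest on them.

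Combined loss of IRF4 and IRF8, in the arrays labelled IRF4/8 DKO, was compared with WT first. Pf4, Cavin2 and F2r fell in IRF4/8 DKO GMPs, to no more than the 28.3 percentile of either array, and they held ranks 3, 2 and 4 among 13267 genes ordered from the largest fall. Itga2b and Vwf lay below WT on every array without passing the test. Gp9, Gp5 and Itgb3 had arrays that overlapped with WT. The limma test called 3 of the 8 genes, all lower, where 0.299% of all probe sets were called, 0.208% lower and 0.0907% higher. For 5 genes both IRF4/8 DKO arrays lay below both WT arrays, which held for 25.3% of all probe sets. The members had a median log2 fold change of -2.94, against 0.03 over all 13267 genes. Fewer megakaryocyte-like cells within the sort and less RNA per cell cannot be told apart in such bulk samples.

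**Figure D1:**
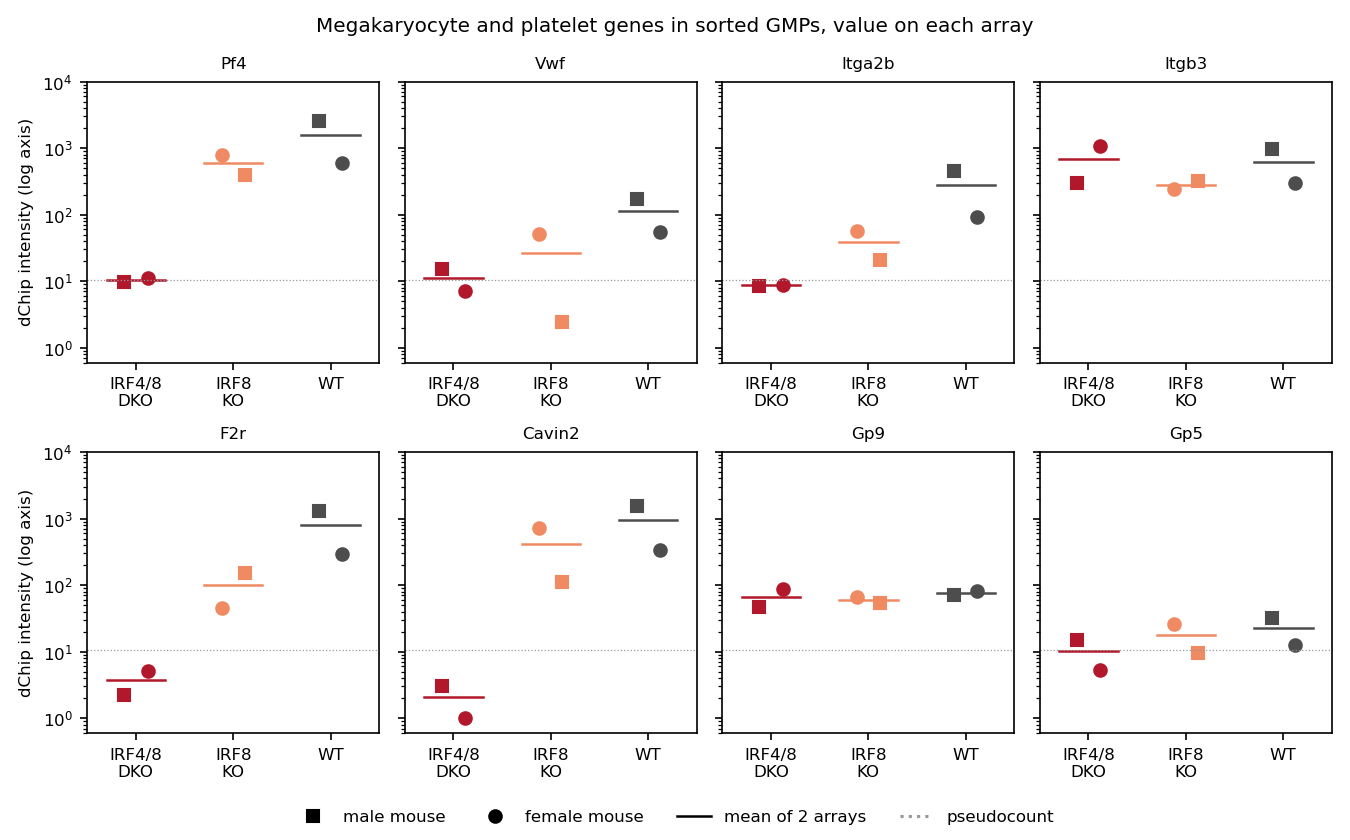
dChip intensity (log axis) of the brightest kept probe set of each of the 8 measured genes, with 1 point per array, by genotype. Lines are means of 2 arrays, squares are male and circles female mice, and the dotted line is the pseudocount of 10.5. Pf4, Cavin2 and F2r sit at 11.2 or lower on both IRF4/8 DKO arrays and at 292 or higher on both WT arrays, while the Gp9 points lie between 46.9 and 87.2 in all genotypes.

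Among the granule proteins, Pf4, which codes for a chemokine that binds heparin and is released when platelets are activated, read 9.85 and 11.2 in IRF4/8 DKO. It read 798 and 394 in IRF8 KO, and 2516 and 590.3 in WT. Both IRF4/8 DKO arrays lay below all 4 others, at about the pseudocount and below the filter, so the size of the fold depends on the pseudocount. The log2 fold change of IRF4/8 DKO against WT was -5.87 ± 0.68 (SE, 2 arrays per genotype, limma adjusted p = 0.0261). On its arrays, Pf4 ranked at the 24.1 and 28.3 percentile of probe sets in IRF4/8 DKO, and at the 95.9 and 83.2 percentile in WT.

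Vwf, the gene of the adhesive protein that ties platelets to a damaged vessel wall, read 15.4 and 7.03 in IRF4/8 DKO, 50.8 and 2.44 in IRF8 KO, and 171.9 and 55.0 in WT. The IRF4/8 DKO arrays lay below both WT arrays, and the IRF8 KO arrays spanned a 20.8-fold range around them. The log2 fold change of IRF4/8 DKO against WT was -2.36 ± 0.75 (SE, limma adjusted p = 0.345). Endothelial cells are the other main source of this protein, and the endothelial genes measured are given with the other cell types.

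Cavin2, a coat protein of caveolae, the small pits of the cell membrane, read 3.1 and 1 in IRF4/8 DKO, 712 and 110.9 in IRF8 KO, and 1543 and 341 in WT. Both IRF4/8 DKO arrays lay below all 4 others, near the lowest values of the table, and the IRF8 KO and WT arrays overlapped. The log2 fold change of IRF4/8 DKO against WT was -5.88 ± 0.89 (SE, limma adjusted p = 0.0443). Its size depends on the pseudocount, and with one of 39.2 it was -4.23 (limma adjusted p = 0.0962). The other Cavin2 probe sets were left out by the filter. One of them read 1.63 and 1 in IRF4/8 DKO, 15.2 and 4.68 in IRF8 KO, and 67.1 and 19.2 in WT. The other read 1 and 5.58 in IRF4/8 DKO, 4.29 and 12.5 in IRF8 KO, and 49.6 and 14.95 in WT. On all 3 probe sets both IRF4/8 DKO arrays lay below both WT arrays.

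F2r codes for PAR1, a receptor that thrombin switches on by cutting it, and which human platelets use while mouse platelets rely on PAR3 and PAR4. It read 2.25 and 5.19 in IRF4/8 DKO, 45.5 and 152.9 in IRF8 KO, and 1294 and 291.9 in WT. The 3 genotypes did not overlap, with IRF8 KO between the other two. The log2 fold change of IRF4/8 DKO against WT was -5.47 ± 0.74 (SE, limma adjusted p = 0.0327). The other F2r probe set kept the same order, at 8.55 and 7.88 in IRF4/8 DKO, 18.9 and 48.8 in IRF8 KO, and 507 and 113.2 in WT, and did not pass (-3.76 ± 0.66 SE, limma adjusted p = 0.0742). With a pseudocount of 39.2 the first probe set no longer passed either (-3.95, limma adjusted p = 0.0591).

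Itga2b codes for integrin alpha IIb, the subunit known as CD41 that is made in megakaryocytes and in early blood progenitors. It read 8.56 and 8.88 in IRF4/8 DKO, 55.8 and 21.1 in IRF8 KO, and 456.1 and 93.6 in WT. Its 3 genotypes did not overlap and stood in the same order as those of F2r. The log2 fold change of IRF4/8 DKO against WT was -3.52 ± 0.68 (SE, limma adjusted p = 0.103). It passed when only these genotypes were fitted (limma adjusted p = 0.0157), a setting that called 476 of 29783 probe sets against 89 in the main fit.

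Itgb3, the beta 3 subunit that pairs with alpha IIb in platelets and with alpha V in many other cells, read 298.3 and 1080 in IRF4/8 DKO, 241 and 319 in IRF8 KO, and 954 and 298.1 in WT. All 3 genotypes overlapped. The log2 fold change of IRF4/8 DKO against WT was 0.09 ± 0.70 (SE, limma adjusted p = 0.983), with a 95% interval from -1.51 to 1.68. Its other probe set was dim, between 8.95 and 32.6 on all arrays, with a log2 fold change of -0.11.

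Of the complex that binds von Willebrand factor, Gp9, a small subunit needed to bring it to the cell surface, read 46.9 and 87.2 in IRF4/8 DKO, 66.7 and 53.9 in IRF8 KO, and 72.1 and 81.4 in WT. Its log2 fold change of IRF4/8 DKO against WT was -0.22, with a 95% interval from -1.19 to 0.76 (limma adjusted p = 0.93). Median centring of the arrays gave 0.003 in place of -0.22. Gp5, a subunit that thrombin can cut, was low throughout, at 15.0 and 5.36 in IRF4/8 DKO, 25.9 and 9.59 in IRF8 KO, and 32.2 and 12.5 in WT. Its log2 fold change was -0.64 ± 0.48 (SE, limma adjusted p = 0.786), and the genotypes overlapped. Gp1bb, the beta chain that holds the complex together, was below the filter on both its probe sets, with its highest value at 29.8 in WT replicate 1.

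The calls rest on all arrays of both genotypes. Without either WT array or either IRF4/8 DKO array, limma called 0 of the 8 genes and 0 of all probe sets, and the Pf4 log2 fold change ran from -6.91 to -4.84. Such a fit assumes that the lone array varies like those of the other genotypes. With sex as a block, and without the filter on low values, 0 members passed as well, with limma adjusted p = 0.0963 and 0.0518 for Pf4. Between the male arrays the log2 difference of Pf4 was -6.96 and between the female arrays -4.79, and the members had medians of -3.71 and -2.16.

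**Figure D2:**
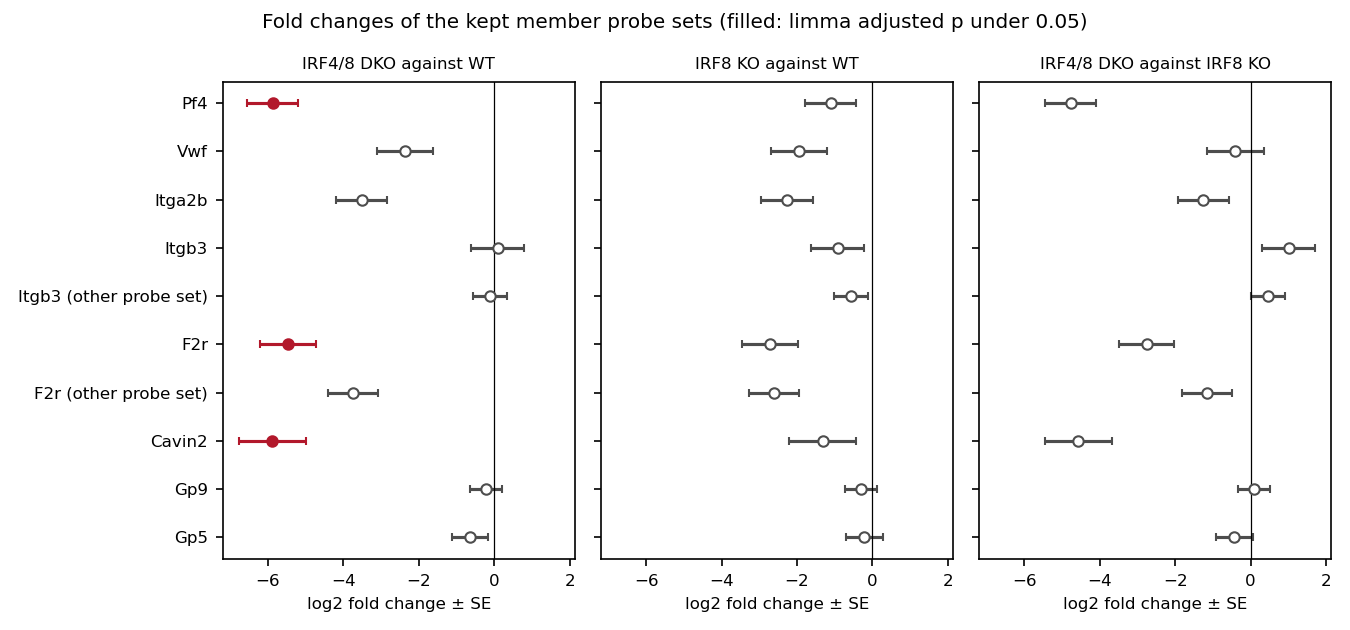
Log2 fold change with its SE for the 10 kept member probe sets in 3 comparisons, where filled points passed limma at an adjusted p under 0.05. Pf4, F2r and Cavin2 are filled against WT in IRF4/8 DKO, at -5.87, -5.47 and -5.88, and no point is filled in the other comparisons.

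Loss of IRF8 alone, in the arrays labelled IRF8 KO, was compared with WT. None of the 8 genes passed limma, where 0.0302% of all probe sets were called, and 3 had an unadjusted p under 0.05, as did 4007 of 29783 probe sets. The median log2 fold change of the members was -1.21, against 0.04 over all genes. F2r had a log2 fold change of -2.72 ± 0.74 (SE, limma adjusted p = 0.179), Itga2b -2.27 ± 0.68 (adjusted p = 0.215) and Vwf -1.96 ± 0.75 (adjusted p = 0.311). For 4 genes, F2r, Itga2b, Vwf and Gp9, both IRF8 KO arrays lay below both WT arrays, which held for 25.9% of all probe sets. Pf4 and Cavin2, at -1.11 ± 0.68 and -1.32 ± 0.89 (SE, limma adjusted p = 0.521 and 0.561), overlapped with WT. The IRF8 KO female read higher than the WT female for both, with log2 differences of 0.43 for Pf4 and 1.04 for Cavin2, and the male lower than the WT male, at -2.64 and -3.68. The members had a median of -0.17 between the female arrays and -2.82 between the male arrays, a difference that was not tested. Without IRF8 KO replicate 1, the female, the log2 fold change of Vwf was -3.08, which rests on 1 IRF8 KO array, at 2.44.

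The added loss of IRF4 was examined as the arrays labelled IRF4/8 DKO against those labelled IRF8 KO. Here limma called 0 of all 29783 probe sets, with 2538 at an unadjusted p under 0.05, so no member passed. Pf4 had a log2 fold change of -4.77 ± 0.68 (SE, limma adjusted p = 0.364) and ranked 1 by p-value among the 13267 genes. Cavin2 had -4.57 ± 0.89 (SE, limma adjusted p = 0.482), and F2r -2.76 ± 0.74 (limma adjusted p = 0.536). They held ranks 2, 3 and 15 from the largest fall. Both IRF4/8 DKO arrays lay below both IRF8 KO arrays for these genes and for Itga2b, 4 of 8, against 17.3% of all probe sets. Without IRF8 KO replicate 1 the log2 fold change of Pf4 was -4.27. Without IRF8 KO replicate 2 those of Pf4 and Cavin2 were -5.27 and -5.85. Each of these fits leaves IRF8 KO with 1 array. Vwf, Gp9, Gp5 and Itgb3 had values of -0.40, 0.09, -0.43 and 1.01, with limma adjusted p from 0.704 to 0.968.

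Set side by side, the members fell into patterns by level. Pf4, Cavin2, F2r, Itga2b, Vwf and Gp5 were all below the filter on both IRF4/8 DKO arrays. For Pf4 and Cavin2 the IRF8 KO arrays overlapped with WT and lay above both IRF4/8 DKO arrays. F2r and Itga2b stood in steps, lowest in IRF4/8 DKO and highest in WT. The 3 comparisons share arrays, so these values are not independent of each other. When both IRF8-deficient genotypes were averaged and set against WT, 2 of the 8 genes passed, both lower: F2r, at -4.09 ± 0.64 (SE, limma adjusted p = 0.0360), and Pf4, at -3.49 ± 0.59 (adjusted p = 0.0441). Of all probe sets, 0.601% were called, 0.413% lower. All 4 deficient arrays lay below both WT arrays for 3 of the 8 genes, F2r, Itga2b and Vwf, against 12.5% of all probe sets.

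The members also differed between the mice of a genotype. In WT, replicate 1, the younger male, read higher than replicate 2 for 7 of the 8 genes, and more than 2-fold higher, after the pseudocount was added, for 6. The same held for 4.04% of all genes. Raw WT ratios were 4.26 for Pf4, 4.53 for Cavin2, 4.43 for F2r, 4.87 for Itga2b, 3.12 for Vwf and 3.20 for Itgb3, against 0.885 for Gp9. In IRF8 KO, replicate 1 read more than 2-fold higher for 4 of the 8 genes, against 10.1% of all genes, and F2r went the other way. In IRF4/8 DKO none was more than 2-fold higher in replicate 1, and Itgb3 was 3.62 times higher in replicate 2. Other lists also differed between replicates. Of the 9 erythroid markers 44.4% were more than 2-fold higher in replicate 1 in WT and 55.6% in IRF8 KO, and of the 10 megakaryocyte regulators 40% in WT. Neutrophil and monocyte markers had a median log2 difference of -0.49 in WT and -0.65 in IRF8 KO. Sex, age and mouse cannot be told apart in the WT and IRF8 KO pairs, and sex and mouse cannot in the IRF4/8 DKO pair, where both mice were 16 weeks old.

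**Figure D3:**
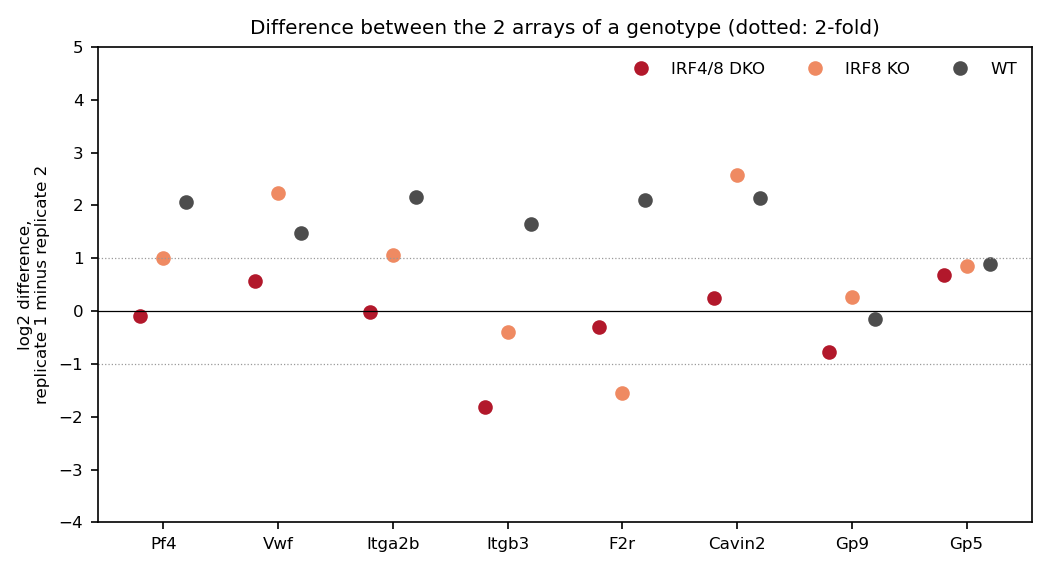
Log2 difference between the 2 arrays of a genotype, replicate 1 minus replicate 2, for each of the 8 measured genes after adding the pseudocount. Dotted lines mark 2-fold. The WT points of 6 genes lie above the upper line, and the IRF4/8 DKO point of Itgb3 and the IRF8 KO point of F2r lie below the lower one.

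Relatives of the members were examined next, from lists chosen with earlier results of these data known. Cavin1, the coat protein that caveolae need to form, fell in IRF4/8 DKO as Cavin2 did. It read 5.15 and 4.01 in IRF4/8 DKO, 23.9 and 6.8 in IRF8 KO, and 216.4 and 100.3 in WT (IRF4/8 DKO against WT -3.40 ± 0.50 SE, limma adjusted p = 0.0416). Another kept Cavin1 probe set had the opposite sign and did not pass (0.42, limma adjusted p = 0.848). Cav1, the main caveolar membrane protein, read 23.3 and 18.9 in IRF4/8 DKO, 12.8 and 18.3 in IRF8 KO, and 106.8 and 41.5 in WT, and did not pass (-1.31 ± 0.46 SE, limma adjusted p = 0.416). Cavin3 was left out by the filter, at 1 on 5 of the 6 arrays. The thrombin receptors that mouse platelets use, F2rl2 (PAR3) and F2rl3 (PAR4), had log2 fold changes of -1.47 and -1.28 (limma adjusted p = 0.483 and 0.417). For both, the IRF4/8 DKO arrays lay below both WT arrays, which held for 25.3% of all probe sets. Of the 7 measured caveolar and thrombin receptor relatives, 1 fell, 0 rose and 6 did not pass.

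Integrin alpha V, the other partner of beta 3, read 935 and 971 in IRF4/8 DKO, 1128 and 4988 in IRF8 KO, and 642 and 587 in WT on the brightest Itgav probe set (IRF4/8 DKO against WT 0.63 ± 0.60 SE, limma adjusted p = 0.836). Itgb5, another beta subunit that pairs with alpha V and was chosen after its values were seen, read 244 and 265 in IRF4/8 DKO, 225 and 1674 in IRF8 KO, and 86.3 and 75.3 in WT (1.54 ± 0.79 SE, limma adjusted p = 0.637). On these probe sets IRF8 KO replicate 2, the male of 22 weeks, stood apart, as it did on another Itgb5 probe set, at 1649. The remaining kept probe sets of both genes did not show this. On IRF8 KO replicates 1 and 2, one of Itgav read 70.7 and 88.3, and one of Itgb5 160 and 123. Of 16 measured integrin relatives 0 passed in any of the 4 comparisons, with 1 below WT in IRF4/8 DKO and a median of 0.26. That one was Itga1, a collagen receptor subunit, at -1.83 ± 0.40 (SE, limma adjusted p = 0.147). Itgam and Itgb1 had values of 1.26 and 0.18 (limma adjusted p = 0.372 and 0.939).

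**Figure D4:**
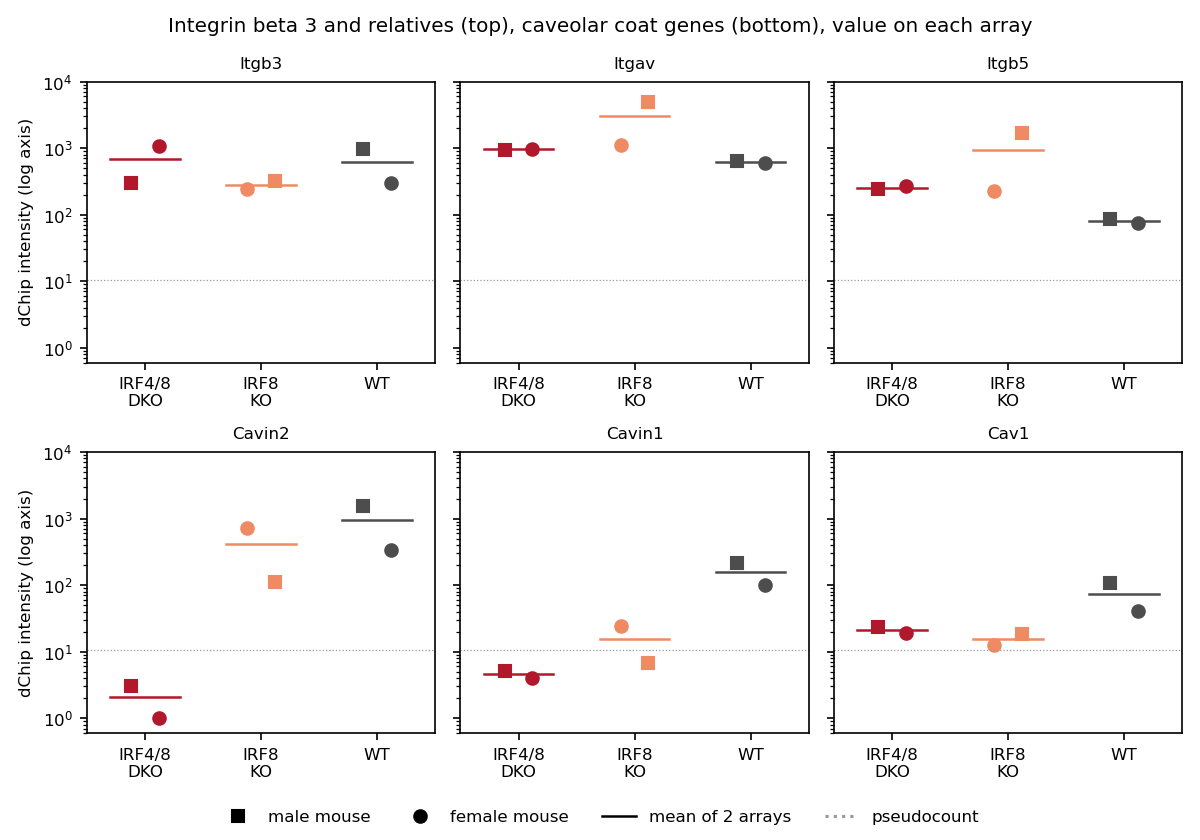
dChip intensity (log axis) on each array of Itgb3 and its relatives Itgav and Itgb5 (top) and of the caveolar genes Cavin2, Cavin1 and Cav1 (bottom). Lines are means of 2 arrays, squares are male and circles female mice. Each panel shows the brightest kept probe set of its gene, and other probe sets can differ. Cavin2 and Cavin1 lie below the dotted pseudocount on both IRF4/8 DKO arrays, and the male IRF8 KO array stands at 4988 for Itgav and 1674 for Itgb5.

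Other platelet genes did not share one pattern. Of 6 further adhesion and collagen receptors measured in the fit, 0 passed in IRF4/8 DKO against WT, with a median log2 fold change of -0.34. Esam, a junction protein of platelets and endothelium, had -0.83 (limma adjusted p = 0.554), and Itga2, a collagen receptor subunit, 0.67 (adjusted p = 0.711). Gp6, the platelet collagen receptor, was left out by the filter, with no value above 31.1. Of 10 granule and clotting proteins 0 passed, with a median of 0.13. Mmrn1, a factor V carrier of platelet granules, read 13.1 and 18.5 in IRF4/8 DKO, 77.7 and 95.8 in IRF8 KO, and 179 and 37.7 in WT (-1.87 ± 0.61 SE, limma adjusted p = 0.362). F13a1, a clotting factor subunit that monocytes make too, was bright, at 10018 and 9610 in IRF4/8 DKO, 8963 and 8891 in IRF8 KO, and 6079 and 6888 in WT (0.60 ± 0.15 SE, limma adjusted p = 0.201). Ppbp, a chemokine gene next to Pf4 in the same cluster, was left out by the filter. It read 5.78 and 5.6 in IRF4/8 DKO, 5.49 and 5.13 in IRF8 KO, and 64.6 and 11.4 in WT.

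Of 14 signalling and cytoskeleton genes of platelets 0 passed in IRF4/8 DKO against WT, with a median of -0.93, and 2 fell when both IRF8-deficient genotypes were set against WT. These were Rab27b, a small GTPase of dense granule release (-2.59 ± 0.44 SE, limma adjusted p = 0.0449), and Lat, an adaptor of platelet and T cell receptors (-2.70 ± 0.46 SE, adjusted p = 0.0459). Rab27b read 14.8 and 12.5 in IRF4/8 DKO, 33.9 and 25.5 in IRF8 KO, and 292.9 and 104.5 in WT. Plek, a protein kinase C substrate of platelets and leukocytes, read 134 and 159 in IRF4/8 DKO, 495 and 511 in IRF8 KO, and 1680 and 594 in WT (IRF4/8 DKO against WT -2.69 ± 0.52 SE, limma adjusted p = 0.103), and its other 2 probe sets had the same sign.

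Among 10 regulators of megakaryocytes, 1 fell in IRF4/8 DKO against WT, with a list median of -0.22. Gata2, which acts in stem cells and early megakaryocyte and mast cell progenitors, read 32.3 and 28.1 in IRF4/8 DKO, 116.6 and 299.7 in IRF8 KO, and 1533 and 615 in WT (-4.60 ± 0.59 SE, limma adjusted p = 0.0285). Gata1, which drives megakaryocyte and red cell maturation, read 2.64 and 4.98 in IRF4/8 DKO, 13.1 and 1.62 in IRF8 KO, and 281.8 and 61.1 in WT (-3.34 ± 0.64 SE, limma adjusted p = 0.103). Gata1 fell when both deficient genotypes were set against WT (limma adjusted p = 0.0475). Both factors were low in IRF4/8 DKO. On the male IRF8 KO array Gata1 read 1.62 and Gata2 299.7, while Pf4 read 394, Itga2b 21.1 and Vwf 2.44. The other kept Gata2 probe set read 20.3 on that array and 222 on the female IRF8 KO array, the reverse order. It had the same sign in IRF4/8 DKO against WT and did not pass (-4.49, limma adjusted p = 0.116). A link between these levels was not tested.

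**Figure D5:**
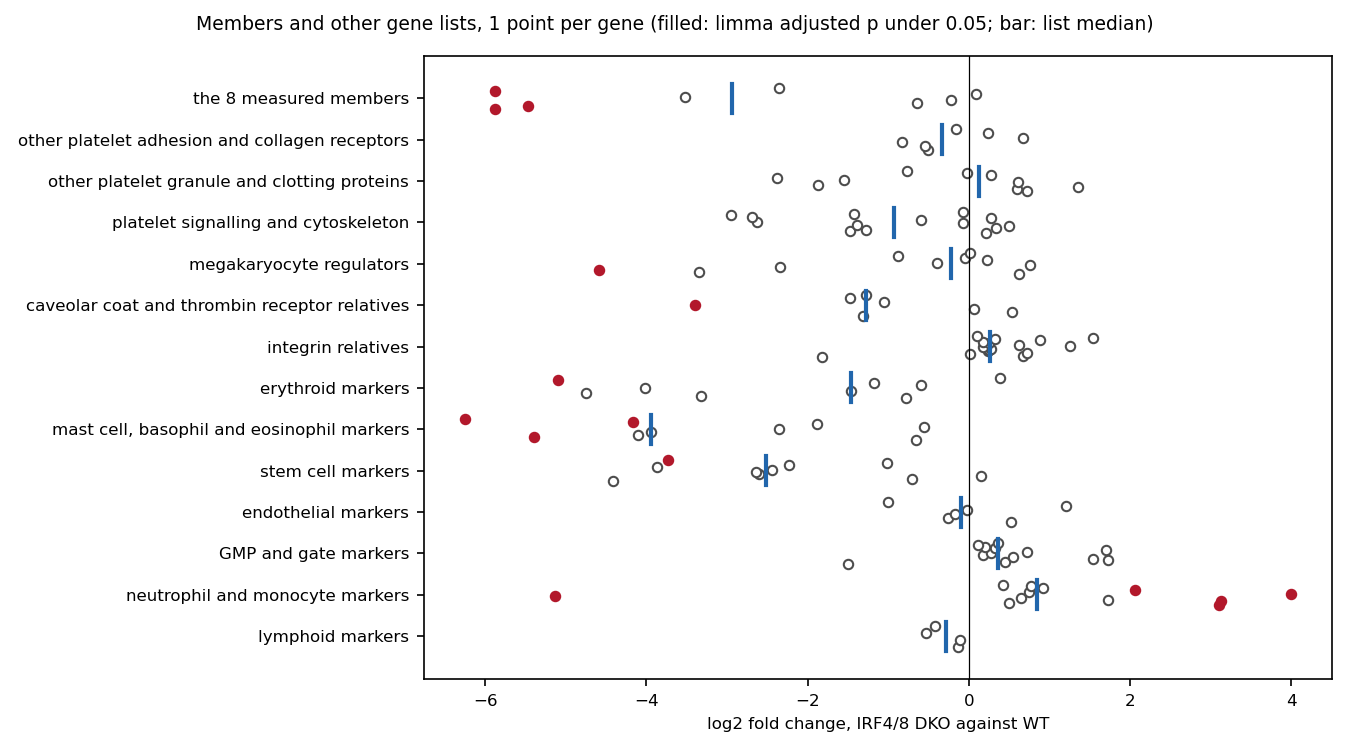
Log2 fold change of IRF4/8 DKO against WT for every measured gene of the 8 members and of 13 other lists, with 1 point per gene, filled where limma passed at an adjusted p under 0.05, and a bar at the list median. The members' median is -2.94, that of the mast cell, basophil and eosinophil list -3.94, and that of the endothelial list -0.09.

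Some lists of markers of other cells that the sort could hold fell with these genes, and others did not. Their part in the results was not tested. Mast cell, basophil and eosinophil markers had a median log2 fold change of -3.94 in IRF4/8 DKO against WT. Of 9 measured, 3 fell (Prg2, Cpa3 and Ms4a2), and all 9 lay below WT on both arrays, which held for 25.3% of all probe sets. The summed intensity of the 9 genes was 1659.7 and 1845 in IRF4/8 DKO, 5522 and 3096 in IRF8 KO, and 13153 and 9071 in WT. Erythroid markers had a median of -1.46 over 9 genes, of which 1 fell, Tfr2, and Car2 fell too when both deficient genotypes were set against WT (limma adjusted p = 0.0381). Their sum was 6239 and 4482 in IRF4/8 DKO, 4487 and 4096 in IRF8 KO, and 9973 and 7479 in WT. Tfrc, a transferrin receptor gene of dividing cells too, made up most of the sum in IRF4/8 DKO, and the other 8 genes summed to 296 and 211 in IRF4/8 DKO, 1151 and 318 in IRF8 KO, and 6815 and 2803 in WT. Stem cell markers had a median of -2.52 over 10 genes, of which 1 fell, Tek, which also fell in IRF8 KO (limma adjusted p = 0.0423). Mecom and Angpt1 fell too when both deficient genotypes were set against WT (limma adjusted p = 0.0313 and 0.0381). A dimmer Angpt1 probe set, which does not stand for the gene here, also passed in IRF4/8 DKO against WT (-3.87 ± 0.48 SE, limma adjusted p = 0.0285). The stem cell list had sums of 2214 and 1519 in IRF4/8 DKO, 2133 and 2510 in IRF8 KO, and 8104 and 5257 in WT. Without Cd48, the brightest of that list, the other 9 genes summed to 1214 and 425 in IRF4/8 DKO. They summed to 1069 and 778 in IRF8 KO, and to 6247 and 3693 in WT. Endothelial markers had a median of -0.09 over 6 genes, none of which passed. Their sums were 1159 to 1405 in IRF4/8 DKO, 1063 to 1710 in IRF8 KO and 1309 to 1459 in WT. Egfl7 made up most of each sum, and the other 5 genes summed to 279 and 272 in IRF4/8 DKO. They summed to 419 and 196 in IRF8 KO, and to 232 and 276 in WT. On both IRF4/8 DKO arrays 1 of the 6, Tie1, lay below both WT arrays, and 2 lay above them. Tie1 read 22.8 and 50.4 in IRF4/8 DKO, 81.8 and 3.27 in IRF8 KO, and 72.4 and 87 in WT. Tek, which fell, was counted with the stem cell markers and not here. Cdh5 of the endothelial list, which defines endothelium, read at most 29.7 on any array. Lymphoid markers stayed dim, with sums of 113.4 to 198.7 over 4 genes on all arrays and 0 past the test. Neutrophil and monocyte markers had a median of 0.84 over 12 genes, of which 4 rose (Ccr2, Adgre1, Mpeg1 and Mmp8) and 1 fell (Ly86), and their sums were 29710.5 and 57561 in IRF4/8 DKO, 32658 and 53001 in IRF8 KO, and 15542 and 32650 in WT. No marker was at 0, since no deposited value is.

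The gate itself was also read. Of 13 GMP and gate genes 0 passed in IRF4/8 DKO against WT, with a median of 0.37. Cd34, the gene of a surface marker used in the sort, read 590 and 509 in IRF4/8 DKO, 440.3 and 669 in IRF8 KO, and 1747 and 1401 in WT (-1.50 ± 0.38 SE, limma adjusted p = 0.213). Fcgr3, the gene of another, read 2516 and 5863 in IRF4/8 DKO, 2618 and 6315 in IRF8 KO, and 1090 and 1259 in WT (1.70 ± 0.48 SE, limma adjusted p = 0.271). For Cd34 all arrays of the deficient genotypes lay below both WT arrays, which held for 12.5% of all probe sets. For Fcgr3 they all lay above WT, and the share of all probe sets for that is not given here. The part of both genes in the results was not tested.

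The genes with the pattern most like the members were found by Pearson's r, over the 6 arrays, with the mean standardised profile of the 8 members. Among 13259 other genes the 5 highest were Aqp1, a water channel gene (r = 0.987), Tnk2, a tyrosine kinase gene (0.986), Tpm2, a tropomyosin gene (0.980), Slc14a1, a urea transporter gene (0.976), and Adgrl2, an adhesion receptor gene (0.972). Aqp1 read 5.84 and 8.96 in IRF4/8 DKO, 35.7 and 9.58 in IRF8 KO, and 182.9 and 57.8 in WT. None of the 5 passed in IRF4/8 DKO against WT, with limma adjusted p from 0.103 to 0.494. Of the members, Itga2b lay closest to the mean profile (r = 0.985) and Itgb3 farthest (0.295), and 118 other genes had an r of 0.9 or more. With 6 arrays that share genotype and mouse, these values describe likeness only.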

How the data were processed

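RNA from sorted GMPs was labelled as biotin cRNA from 10 ng and hybridised to 6 arrays, per the labels' protocols. The authors normalized the arrays and computed intensity values with the PM/MM difference model of dChip 1.3, per the series' design text. How dChip treated low values is not stated there. The deposited values ran from 0.69 to 16563, with no depth.

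Names came from the platform annotation, brought up to date with RefSeq by Entrez identifier: 34945 had 1 symbol, 932 several and 9160 none. Probe sets above the 40th percentile of their array on at least 2 of 6 arrays were kept (29783, with 15254 left out). Every kept member probe set lay above this percentile on at least 1 array of the deficient genotypes. For the kept probe sets of Pf4, Cavin2, F2r, Itga2b and Vwf both WT arrays also lay above it, which was enough to keep them. No IRF4/8 DKO array lay above it for these genes or for Gp5. For each gene the brightest kept probe set by mean log2 value stood for it. One limma 3.58.1 fit held all 3 genotypes (R 4.3.3, variance trend, 3 residual and 5.84 prior degrees of freedom). The script was tested on simulated data.

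The members and lists were chosen with earlier results of these data known. Named genes were all members, listed genes past the threshold or with the lowest adjusted p, a fixed set of relatives, and the 5 most alike. Alternatives were 2 other pseudocounts (3.9 and 39.2), 2 other filters, 2 normalizations, 2 variance models, fits of fewer arrays, and replicate number, sex or age in the fit.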

Additional observations from a re-analysis of the deposited data

Results flagged for a closer look

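For some members the male and the female arrays of 2 genotypes differed in opposite directions, which was not tested, as each difference rests on 1 array of each genotype. Values are log2 differences after the pseudocount was added. In IRF8 KO against WT, Pf4 differed by -2.64 between male and 0.43 between female arrays, Cavin2 by -3.68 and 1.04, and Gp5 by -1.09 and 0.66. In IRF4/8 DKO against WT, Itgb3 differed by -1.64 between male and 1.82 between female arrays, and Gp9 by -0.52 and 0.088. In IRF4/8 DKO against IRF8 KO, Vwf differed by 1.002 between male and -1.81 between female arrays, Gp5 by 0.34 and -1.20, Gp9 by -0.17 and 0.34, and Itgb3 by -0.10 and 2.12. The mice of a sex also differed in age, so these cannot be told apart.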

How the results depend on the processing

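Of the 8 members, limma called 3 in IRF4/8 DKO against WT. It called 1, Pf4, with the median as pseudocount and 1, Pf4, with no variance trend, 0 without the filter or with sex as a block, and 5 with age as a covariate or with only the genotypes compared. Leaving out an array gave 0 to 5: 0 without any WT or IRF4/8 DKO array and 5 without either IRF8 KO array. Median centring called Pf4 and F2r. When both deficient genotypes were set against WT, 2 were called. There were 1 with the median as pseudocount, 0 without the filter, with median centring, with no variance trend or with sex as a block, and 5 with age as a covariate. Leaving out an array gave 0 to 5. In IRF8 KO against WT the count was 0, and 0 to 1 without an array. In IRF4/8 DKO against IRF8 KO it was 0, 2 with age as a covariate, and 0 to 2 without an array. The cause of these changes was not tested. Whether samples of the same replicate number belong together is unknown. Correlations of same-numbered deviations were 0.04 for IRF8 KO and WT, 0.19 for IRF4/8 DKO and WT, and 0.21 for IRF4/8 DKO and IRF8 KO. With 1 difference per genotype they cannot decide this. With a replicate block 4 members were called in IRF4/8 DKO against WT and 5 when both deficient genotypes were set against WT, and 0 in the other 2 comparisons.

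Over all probe sets, IRF4/8 DKO against WT had 89 calls in the main setting, and from 0 with sex as a block or without a WT array to 484 without IRF8 KO replicate 2, with 13 without the filter, 27 with no variance trend, 216 with a replicate block, 229 with age and 476 with only the genotypes compared. Median centring gave 45, 19 higher and 26 lower, against 27 higher and 62 lower, and moved the median of all probe sets to 0.18 from -0.04. IRF8 KO against WT had 9 calls, 3 higher and 6 lower, and from 0 without a WT array to 1090 without IRF8 KO replicate 1. It had 30 with quantile normalization, 13 higher and 17 lower, 6 with median centring, 3 higher and 3 lower, 136 with age and 209 with a replicate block. IRF4/8 DKO against IRF8 KO had 0 to 200 calls. Both deficient genotypes against WT had 179, and from 0 without a WT array to 1020 without IRF8 KO replicate 1.

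Signs turned only for members near 0 or that 1 array decided. In IRF4/8 DKO against WT, Gp9 was 0.0030 with median centring and -0.60 to 0.17 without an array. The dim Itgb3 probe set was 0.033 with quantile normalization, 0.11 with median centring and -0.60 to 0.38 without an array, and the bright one -0.82 to 0.998. Without an array, Gp5 ran from -0.66 to 0.23 in IRF8 KO against WT. In IRF4/8 DKO against IRF8 KO, Gp9 ran from -0.30 to 0.47, the dim Itgb3 probe set from -0.028 to 0.94, Gp5 from -0.86 to 0.0018 and Vwf from -1.52 to 0.72. With both deficient genotypes against WT, Gp5 ran from -0.87 to 0.018 and Itgb3 from -1.24 to 0.41. Pf4, Cavin2, F2r and Itga2b turned sign under none of the alternatives run in IRF4/8 DKO against WT.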
